A study of Mus musculus with 10 samples.

Results

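The genes described here encode the dynein arms, nexin links, radial spokes and tektins of the axoneme, the microtubule core of sperm tails and motile cilia, together with the tubulin tyrosine ligase-like (Ttll) enzymes that modify its tubulin. They were defined by name, although earlier results of these data were known. The rule took every protein-coding gene whose mouse symbol starts with 1 of 7 prefixes (Dnah, Dnai, Dnal, Drc, Rsph, Tekt or Ttll followed by a digit or a letter). This gave 49 members among 55421 genes in the count files, of which 47 passed the filter on low counts and were tested. The antisense gene Dnah2os carries a member prefix but is not protein-coding and was left out. Expression was measured by RNA-seq in whole testes of mice at postnatal day 21, with 3 wild type libraries (Mov10+/+, replicates 1, 2 and 3) and 3 Mov10-/- libraries (replicates 2, 3 and 4). Each library came from 1 pair of testes. The Mov10-/- mice were global knockouts, in which Actb-Cre, driven by the ubiquitous beta-actin promoter, had removed floxed exons of Mov10, an RNA helicase gene, and the mice were on a mixed 129 x C57BL/6 x FVB background. A further 4 libraries held reads of MOV10 CLIP-seq, the sequencing of RNA fragments cross-linked to and immunoprecipitated with MOV10, from wild type testes of the same age.

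In an axoneme, outer and inner dynein arms on each doublet microtubule walk along the neighboring doublet, nexin links hold doublets together, and radial spokes pass signals from the central pair to the arms. Each arm is built from heavy chains, which are the motors, and from intermediate and light chains. Tektins are filament-forming proteins inside the doublet wall, and most Ttll enzymes add glutamate or glycine to tubulin tails. In the testis, transcripts for these parts accumulate from meiosis onward and the tail itself is assembled in spermatids, which appear during the third week after birth. The testis at this age holds many spermatocytes and only the first round of spermatids.

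The comparison of Mov10-/- with wild type testes asks how these transcripts stood when MOV10 was absent. None of the 47 tested members passed an adjusted p of 0.05 with a change over 2-fold in the quasi-likelihood test of edgeR, in which Mov10 itself was the single gene called lower among 20240 tested (background 0.00494% lower and 0% higher). The members' adjusted p ranged from 0.15 to 0.896. At an unadjusted p under 0.05, 11 members were lower in Mov10-/- testes and 1, Ttll12, was higher, where 11.9% and 5.58% of all genes tested were. Every Mov10-/- library lay below every wild type library for 14 members and above for 1, against a background of 14.1% and 11.9%. A negative log2 fold change was found for 44 of 47 members, where 46.2% of all genes had one. This number was 38 without wild type replicate 2 and 35 without Mov10-/- replicate 2, where 46.8% and 47.3% of all genes were negative. The median log2 fold change of the members was -0.31, against 0.03 over all genes tested and 0.06 over protein-coding genes. It was -0.16 without wild type replicate 2 and -0.18 without Mov10-/- replicate 2. Thus most members sat slightly lower. A mean more than 2-fold lower was found for 6 of 47 members (Dnah3, Ttll8, Ttll10, Dnah5, Ttll7 and Rsph14), against 1979 of 20240 genes tested.

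Without wild type replicate 2, log2 fold changes were -1.43 for Dnah5, -1.19 for Ttll10 and -1.15 for Ttll7. In that fit 7 members in place of 11 were lower at an unadjusted p under 0.05, where 6.47% in place of 11.9% of all genes were. Other tests called some of these members. DESeq2 called Dnah3, Dnah5 and Ttll7 lower and no member higher (background 4.86% lower, 0.252% higher). The exact test of edgeR called 5, these 3 with Ttll8 and Ttll10 (background 5.09% lower, 0.346% higher). Ttll11 passed the adjusted p in both but its mean was less than 2-fold lower.

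**Figure D1:**
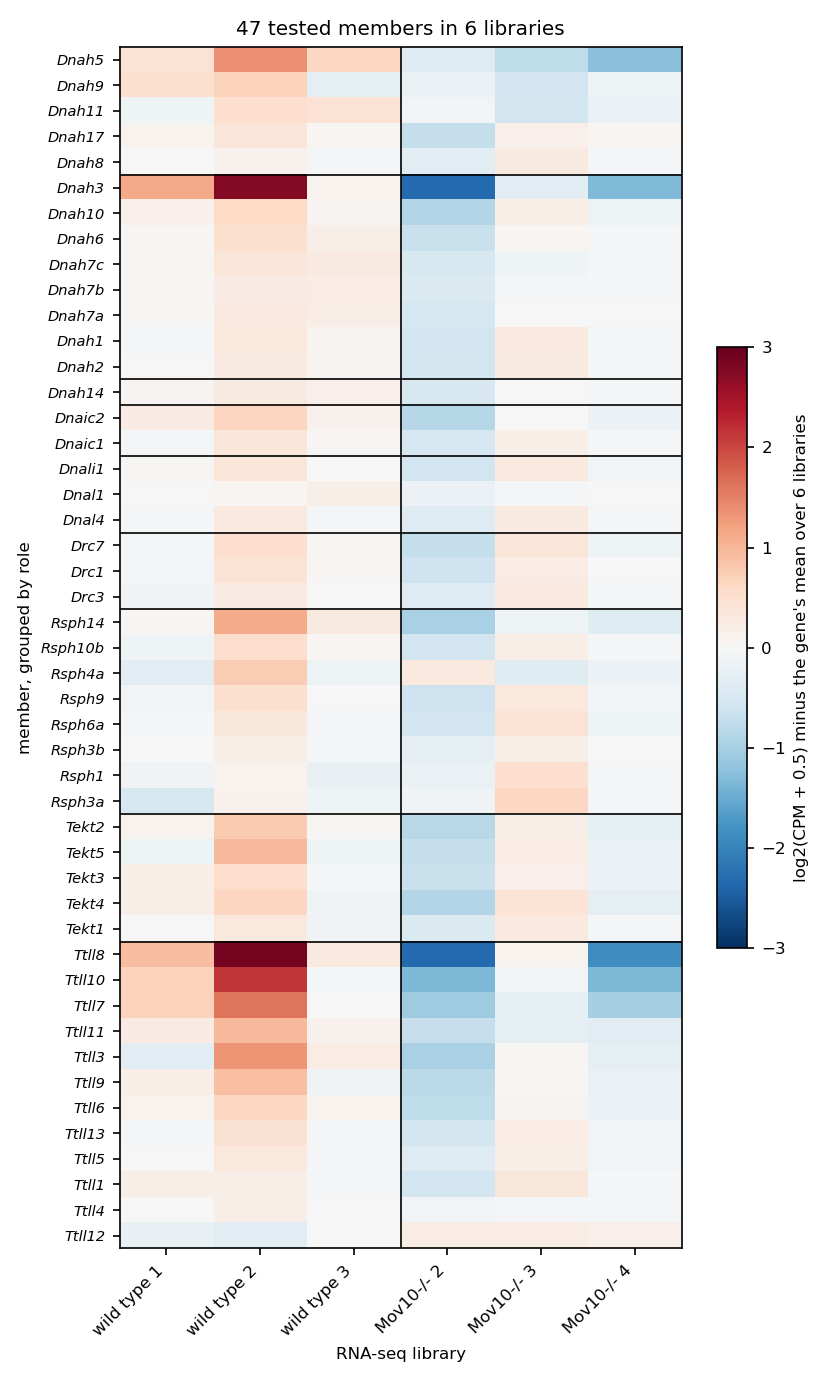
Heat map of the 47 tested members (rows, grouped by role with black lines between roles) in the 3 wild type and 3 Mov10-/- libraries (columns). Color gives log2(CPM + 0.5) minus the mean of that gene over the 6 libraries. Wild type replicate 2 is the reddest column, with the highest level in 37 of 47 members, and Mov10-/- replicate 2 the bluest, with the lowest in 39.

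The libraries did not contribute evenly. Wild type replicate 2 had the highest level of 37 members, while it was the highest library for 29.2% of all genes tested. Mov10-/- replicate 2 had the lowest level of 39 members, and of 30.2% of all genes. Mov10-/- replicate 3 was the highest library for 9 members (19.15%), close to its share of all genes (21.9%). Reads on genes ranged from 5083407 in Mov10-/- replicate 3 to 9230540 in wild type replicate 3. In Mov10-/- replicate 3, 57.2% of reads were not aligned, against 26.5% to 35.9% in the other 5. Mov10 fell from 110.2 ± 12 to 27.6 ± 1.39 CPM (reads of a gene scaled to a common library total; mean ± SD, n = 3 each), with an adjusted p of 0.00552, so the labels and the targeted gene matched in each library. Levels below are CPM scaled by TMM, edgeR's library normalization, and are listed for wild type replicates 1, 2 and 3 and then for Mov10-/- replicates 2, 3 and 4.

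Markers of the germ cell stages differed between the same libraries. Summed over the 19 tested of 20 spermatid markers, the level was 615, 1389 and 421 CPM in wild type libraries and 147, 389 and 207 CPM in Mov10-/- libraries. None of these markers passed the adjusted p, and their median log2 fold change was -2.19. At an unadjusted p under 0.05, 17 were lower, where 11.9% of all genes tested were. Fits of these markers without wild type replicate 2, the library with the highest sum, are not given. The sum of 18 spermatocyte markers ranged from 1928 to 2007 CPM in wild type and from 1798 to 2254 CPM in Mov10-/- libraries, and the median log2 fold change was 0.06. For Sertoli cells, the somatic nurse cells of the tubule, the 11 tested of 12 markers summed to between 772 and 921 CPM in wild type and between 969 and 1141 CPM in Mov10-/- libraries. Medians for spermatogonia (0.24), Leydig cells (0.24), peritubular and endothelial cells (0.30) and macrophages (0.32) were also above 0. Of 11 markers of multiciliated cells, 6 were tested, and the defining genes Mcidas and Gmnc were below the filter. The 6 tested had a median of -0.27, and Foxj1 and Ccno were lower at an unadjusted p under 0.05 without overlap of the groups. In bulk tissue, fewer cells of a type and less RNA per cell cannot be told apart. The part of cell makeup in the members' values was not tested.

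**Figure D2:**
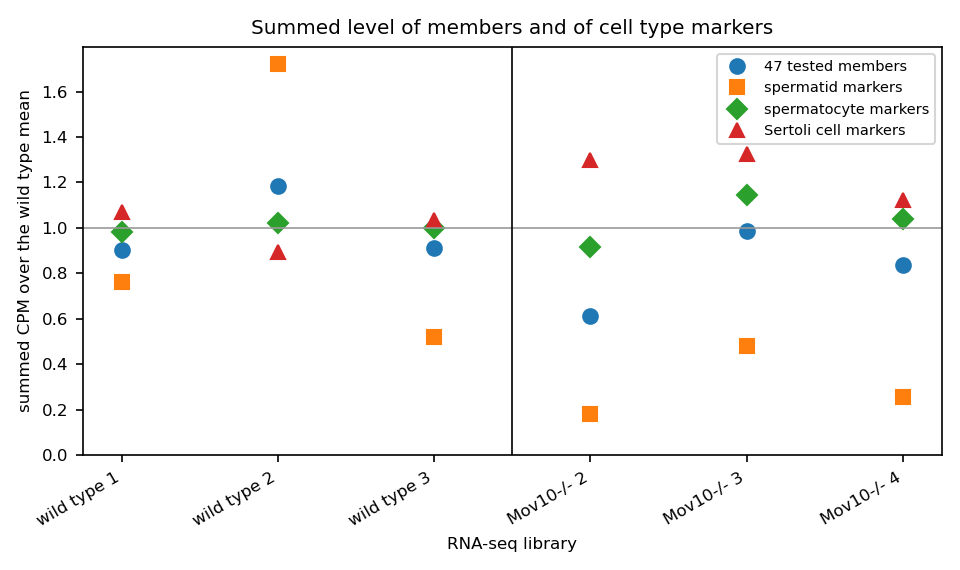
Summed CPM of the 47 tested members, 19 spermatid markers, 18 spermatocyte markers and 11 Sertoli cell markers in each library (columns), divided by the mean of the 3 wild type libraries for that list. Members summed to 7092, 9296 and 7134 CPM in wild type and 4806, 7748 and 6548 CPM in Mov10-/- libraries, so the groups overlap, and they spread less than the spermatid markers.

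Promoters were looked up to show the sequence in front of the members with the smallest p. The RefSeq table of promoter windows (build GRCm38.p6, 250 bases before to 50 after each annotated start) matched 43 of 49 members by symbol, with no entry for Dnah3, Rsph1, Rsph4a, Rsph10b, Ttll1 and Ttll11. Each window was searched on both strands for GTTGCCA, a core part of the X-box bound by RFX transcription factors, which are known regulators of ciliary genes, and for TGACGTCA, the cyclic AMP response element (CRE) bound by CREB and CREM. The half-site stood in the windows of 5 of the 43 members (11.6%; Dnah10, Dnah7b, Drc1, Tekt1 and Ttll10), against 5.03% of 27025 genes in the table. The CRE stood in 1 (2.33%; Dnah6) against 2.03% of genes. The shorter string GTTGCC, contained in the half-site and chosen after the windows had been seen, stood in 15 of 43 members (34.9%) and in 14.1% of genes. These 15 were Dnah10, Dnah7a, Dnah7b, Dnah7c, Dnaic2, Drc1, Rsph3b, Tekt1, Tekt2, Tekt4, Ttll10, Ttll3, Ttll5, Ttll8 and Ttll9. A match is a description of the letters and does not show that a factor bound there.

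The windows of the 4 members with the smallest p and an entry are printed 5′ to 3′ on the gene's strand, with each GTTGCC or CRE in capitals. They lie at chr4:156050768-156051067 on the minus strand (Ttll10), chr15:28203516-28203815 on the plus strand (Dnah5), chr3:146852117-146852416 on the plus strand (Ttll7) and chr15:83595108-83595407 on the minus strand (Ttll12). Only Ttll10 of these 4 holds a match, a pair of GTTGCC strings 8 bases apart at the start site. That start lies 8597 bases inside the gene as GENCODE annotates it.
Ttll10: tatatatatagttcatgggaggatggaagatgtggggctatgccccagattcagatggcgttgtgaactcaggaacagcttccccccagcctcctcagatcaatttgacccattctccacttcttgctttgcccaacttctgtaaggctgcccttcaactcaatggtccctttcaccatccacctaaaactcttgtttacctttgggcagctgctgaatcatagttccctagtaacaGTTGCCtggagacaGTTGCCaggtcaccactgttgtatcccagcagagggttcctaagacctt
Dnah5: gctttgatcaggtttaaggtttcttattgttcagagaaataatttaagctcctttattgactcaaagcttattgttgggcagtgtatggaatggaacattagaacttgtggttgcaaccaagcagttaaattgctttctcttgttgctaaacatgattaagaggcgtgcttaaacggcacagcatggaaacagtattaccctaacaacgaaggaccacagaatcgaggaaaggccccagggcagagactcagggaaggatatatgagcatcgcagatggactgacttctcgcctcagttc
Ttll7: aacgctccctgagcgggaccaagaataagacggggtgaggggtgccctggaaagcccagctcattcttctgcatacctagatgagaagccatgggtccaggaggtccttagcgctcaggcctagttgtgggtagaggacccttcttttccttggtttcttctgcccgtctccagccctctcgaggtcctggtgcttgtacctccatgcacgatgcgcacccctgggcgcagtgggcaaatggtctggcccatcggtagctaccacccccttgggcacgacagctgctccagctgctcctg
Ttll12: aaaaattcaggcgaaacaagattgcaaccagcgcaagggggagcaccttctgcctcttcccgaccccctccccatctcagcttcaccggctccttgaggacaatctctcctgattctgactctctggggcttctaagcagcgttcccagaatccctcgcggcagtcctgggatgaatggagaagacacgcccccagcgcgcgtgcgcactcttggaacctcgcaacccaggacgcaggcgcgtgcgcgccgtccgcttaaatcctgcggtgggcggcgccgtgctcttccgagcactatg

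For the other 4 members with the full half-site, 40 bases around it are shown, with the half-site (or its reverse complement TGGCAAC) in capitals. They lie at chr5:124725079-124725118 on the plus strand (Dnah10), chr1:46066674-46066713 on the plus strand (Dnah7b), chr5:30281365-30281404 on the plus strand (Drc1) and chr11:72361874-72361913 on the minus strand (Tekt1). The half-site began 12 bases before the start of Drc1, 15 bases before that of Tekt1 and 163 bases before that of Dnah7b, and lay just inside the transcript of Dnah10. These are RefSeq starts, and those of Dnah7b and Tekt1 lie 538 and 560 bases inside the genes as GENCODE annotates them, so that both half-sites are then within the gene.
Dnah10: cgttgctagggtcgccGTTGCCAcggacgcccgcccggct
Dnah7b: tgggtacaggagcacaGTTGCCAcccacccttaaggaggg
Drc1: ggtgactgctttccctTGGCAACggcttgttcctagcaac
Tekt1: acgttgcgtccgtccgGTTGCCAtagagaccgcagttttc

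Outer arm heavy chains are the main force generators of beating, and mammals use Dnah8 and Dnah17 in sperm tails and Dnah5, Dnah9 and Dnah11 in motile cilia. Dnah8 (chromosome 17) had the highest CPM of any member, at 869, 947 and 834 CPM in wild type and 687, 1042 and 839 CPM in Mov10-/- libraries. Its groups overlapped, and its log2 fold change was -0.05 ± 0.16 (SE; adjusted p = 0.896), with an interval of 2 SE from -0.36 to 0.27. Its sperm partner Dnah17 was at 664, 793 and 642 CPM and at 375, 682 and 638 CPM, a log2 fold change of -0.31 ± 0.22 (adjusted p = 0.50). For Dnah17 the low value came from Mov10-/- replicate 2, and the other Mov10-/- libraries lay within or near the wild type range.

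The heavy chains of motile cilia were far scarcer. Dnah5 stood at 6.24, 12.5 and 7.20 CPM in wild type and 3.35, 2.47 and 1.60 CPM in Mov10-/- libraries. All its Mov10-/- values lay below the lowest wild type value, and its log2 fold change of -1.79 ± 0.42 had the smallest unadjusted p of any member (0.00298; adjusted p = 0.15). Dnah9 was at 15.5, 18.2 and 9.02 CPM against 9.55, 7.20 and 10.1 CPM, and its groups overlapped (log2 fold change -0.66 ± 0.33, adjusted p = 0.345). Dnah11 was at 2.36, 3.97 and 3.76 CPM against 2.48, 1.64 and 2.22 CPM, also with overlap (-0.65 ± 0.36, adjusted p = 0.397). Thus all 5 outer arm heavy chains had negative fold changes, as 46.2% of all genes did, and only that of Dnah5 exceeded 2-fold. That of Dnah8 turned positive without wild type replicate 2 (0.01) and without Mov10-/- replicate 2 (0.09).

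Inner arm heavy chains shape the bend rather than its force. Of the 9 listed, 8 were tested and all 8 had negative fold changes, with a median of -0.39. Without Mov10-/- replicate 2, Dnah1 and Dnah2 turned slightly positive (0.02 each). The groups did not overlap for 4 members (Dnah3, Dnah7a, Dnah7b and Dnah7c), where the Mov10-/- libraries lay below in 14.1% of all genes. Dnah3 (chromosome 7) stood apart from the rest, at 86.7, 266 and 42.0 CPM in wild type and 7.32, 31.0 and 15.4 CPM in Mov10-/- libraries. Wild type libraries thus differed among themselves by more than 6-fold, while the highest Mov10-/- library still lay below the lowest wild type one. Its mean in Mov10-/- testes was 13.6% of that in wild type, and its log2 fold change of -2.92 ± 0.75 (adjusted p = 0.15) was the most negative of the set. Without wild type replicate 2 it was -1.88 (adjusted p = 0.345). Exons of Lyrm1 on the opposite strand overlap 10.5% of the exon bases of Dnah3, and the strand setting of the counting is not stated.

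Dnah7a, Dnah7b and Dnah7c lie on chromosome 1 and are near copies, with coding sequences 95.9% to 96.9% identical, so reads could be split or lost among them. Dnah7c was at 224, 282 and 263 CPM in wild type and 157, 199.8 and 212 CPM in Mov10-/- libraries (log2 fold change -0.43 ± 0.14, adjusted p = 0.190). Dnah7b was at 264, 304 and 299.6 CPM and at 189.8, 247 and 248 CPM (-0.34 ± 0.13, adjusted p = 0.237). For both, the wild type values were close together and the Mov10-/- values all lay below them. The other tested inner arm chains (Dnah1, Dnah2, Dnah6, Dnah7a and Dnah10) had log2 fold changes between -0.52 and -0.18. Dnah14, a heavy chain not assigned to an arm here, was at 399 ± 26.8 CPM in wild type and 319 ± 55.5 CPM in Mov10-/- libraries without overlap (-0.32 ± 0.14, adjusted p = 0.287).

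**Figure D3:**
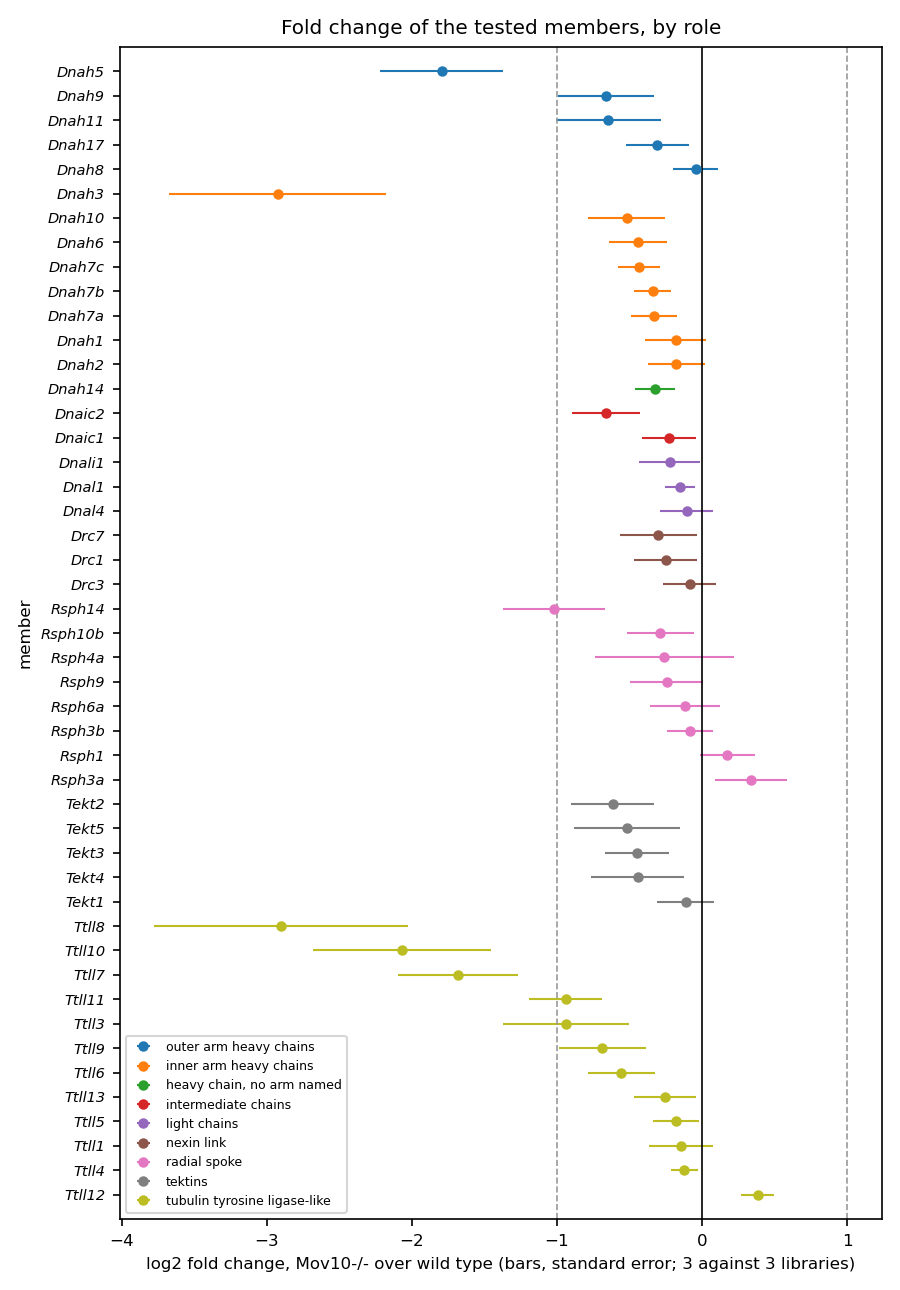
Log2 fold change of the 47 tested members, Mov10-/- over wild type (horizontal axis; points, estimate; bars, standard error; 3 against 3 libraries), listed by role and colored by role. Dashed lines mark a 2-fold change. Points of 44 members lie left of 0, and 6 lie left of the 2-fold line. Of all 20240 genes tested, 9352 had a negative fold change and 1979 were more than 2-fold lower.

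Intermediate chains tie the heavy chains to the doublet, and light chains complete the arm. Dnaic2 (an outer arm intermediate chain) was at 112, 148 and 102 CPM in wild type and 51.6, 94.8 and 83.2 CPM in Mov10-/- libraries, with no overlap (log2 fold change -0.66 ± 0.23, adjusted p = 0.214). Dnaic1, the other intermediate chain of the outer arm, was at 109.6, 144 and 114 CPM against 78.4, 126 and 109 CPM, with overlap (-0.23 ± 0.19, adjusted p = 0.556). The light chains had smaller differences. Dnal1, a light chain of the outer arm motor, was at 88.2, 92.6 and 99.5 CPM against 78.3, 84.3 and 89.4 CPM (-0.15 ± 0.10, adjusted p = 0.472). Dnali1, of the inner arm, was at 122, 154 and 119 CPM against 80.6, 146 and 113 CPM (-0.22 ± 0.21, adjusted p = 0.612). Dnal4 was at 73.3, 94.8 and 73.9 CPM against 58.9, 92.1 and 74.2 CPM (-0.11 ± 0.18, adjusted p = 0.786). None of the 3 light chains separated the groups.

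The nexin link genes, which encode parts of the dynein regulatory complex between doublets, gave the same picture of overlapping groups. Drc1, a scaffold of the link, was at 117, 159.5 and 124 CPM in wild type and 78.4, 139.8 and 119 CPM in Mov10-/- libraries (-0.25 ± 0.22, adjusted p = 0.575). Drc7 was at 108, 157 and 114 CPM against 67.2, 142 and 99.2 CPM (-0.30 ± 0.26, adjusted p = 0.584). Drc3 was at 84.4, 108 and 90.7 CPM against 69.2, 112 and 86.4 CPM (-0.08 ± 0.18, adjusted p = 0.834). In each of these 3 genes, Mov10-/- replicate 2 was the lowest library and the other Mov10-/- libraries were within or near the wild type range.

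Among the 8 radial spoke genes, Rsph14 alone separated the groups. It was at 18.8, 39.6 and 22.0 CPM in wild type and 9.06, 16.7 and 14.1 CPM in Mov10-/- libraries (-1.02 ± 0.35, adjusted p = 0.207). Without wild type replicate 2 its log2 fold change was -0.63, below 2-fold. The spoke head genes Rsph6a, used in sperm, and Rsph4a, used in motile cilia, differed widely in level. Rsph6a was at 126, 164 and 125 CPM in wild type and 87.6, 177 and 119 CPM in Mov10-/- libraries (-0.12 ± 0.24, adjusted p = 0.821). Rsph4a was at 1.30, 3.29 and 1.5 CPM against 2.23, 1.23 and 1.48 CPM (-0.26 ± 0.48, adjusted p = 0.803), close to the filter of 1 CPM. Neither separated the groups.

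Of the remaining spoke genes, 2 had positive fold changes. Rsph3a, a spoke stalk gene, was at 27.3, 41.5 and 35.1 CPM in wild type and 35.4, 59.4 and 36.9 CPM in Mov10-/- libraries (0.34 ± 0.25, adjusted p = 0.521). Its near copy Rsph3b, whose coding sequence is 96.1% identical, had a log2 fold change of -0.08 ± 0.16, and reads of the pair could be split between them. Rsph1, a spoke head gene named here after its values were seen, had a log2 fold change of 0.17 ± 0.19 (adjusted p = 0.664), and of -0.07 without Mov10-/- replicate 3. For Rsph3a, Rsph3b and Rsph1 the groups overlapped. Rsph9, another spoke head gene, was at 50.6, 74.6 and 53.2 CPM against 34.7, 66.2 and 50.4 CPM (-0.24 ± 0.25, adjusted p = 0.645). Rsph10b was at 61.1, 96.5 and 69.5 CPM against 45.2, 76.7 and 64.8 CPM (-0.29 ± 0.23, adjusted p = 0.556), and 10.5% of its exon bases are shared with Gm42421 on the same strand. Rsph1 and Rsph3a both lie on chromosome 17, which holds 7 of the 49 members. Of the 6 tested there, these 2 had positive fold changes and 4 had negative ones.

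Tektins are coiled-coil proteins that line the inside of doublet microtubules, and all 5 mouse tektin genes were measured. Tekt1 was at 99.2, 124 and 92.8 CPM in wild type and 74.1, 123 and 95.5 CPM in Mov10-/- libraries (-0.11 ± 0.20, adjusted p = 0.786). Tekt2 was at 87.3, 139.6 and 82.4 CPM against 44.9, 90.9 and 66.9 CPM (-0.62 ± 0.29, adjusted p = 0.317), and 20.8% of its exon bases overlap Gm12945 on the opposite strand. These 2 were the smallest and largest differences among the tektins. Tekt3 was at 99.4, 124 and 82.9 CPM against 54.2, 94.8 and 76.3 CPM (-0.45 ± 0.22, adjusted p = 0.345). Tekt4 was at 88.3, 120.0 and 71.1 CPM against 41.7, 102 and 63.4 CPM (-0.44 ± 0.32, adjusted p = 0.508). Tekt5 was at 32.0, 70.7 and 32.7 CPM against 21.5, 42.1 and 31.2 CPM (-0.52 ± 0.37, adjusted p = 0.502). For each tektin wild type replicate 2 was the highest library and Mov10-/- replicate 2 the lowest, and the groups overlapped. Without wild type replicate 2, log2 fold changes were 0.02 for Tekt1, -0.34 for Tekt2, -0.28 for Tekt3, -0.22 for Tekt4 and -0.04 for Tekt5.

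The Ttll enzymes showed the widest spread of any role, from -2.90 to 0.38 on the log2 scale over 12 tested genes. Ttll8, a glycylase that starts glycine side chains on tubulin, was at 32.4, 127 and 20.7 CPM in wild type and 2.98, 18.1 and 4.32 CPM in Mov10-/- libraries. Its groups did not overlap, but wild type replicate 2 was more than 3 times as high as either other wild type library. The log2 fold change was -2.90 ± 0.87 (adjusted p = 0.173), and -1.71 without that library. Ttll10, a glycylase that lengthens such side chains, was at 52.5, 146 and 30.9 CPM against 12.5, 30.8 and 12.3 CPM. Here the lowest wild type and the highest Mov10-/- values nearly touched, and the log2 fold change was -2.07 ± 0.61 (adjusted p = 0.167). Ttll3, the other glycylase that starts side chains, had a log2 fold change of -0.94 ± 0.43 with overlapping groups (adjusted p = 0.316), and of -0.33 without wild type replicate 2.

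Glutamylases, which add glutamate chains, were mixed. Ttll7 was at 63.7, 121 and 39.5 CPM in wild type and 18.4, 32.3 and 19.5 CPM in Mov10-/- libraries, with no overlap. Its log2 fold change of -1.69 ± 0.41 had an adjusted p of 0.15 in the quasi-likelihood test and 0.00224 in DESeq2. Ttll11 was at 43.2, 70.9 and 39.3 CPM against 22.2, 29.4 and 28.4 CPM, again with no overlap (-0.94 ± 0.25, adjusted p = 0.152). By contrast Ttll1, the catalytic subunit of a glutamylase complex, was at 81.5, 81.8 and 69.1 CPM against 48.1, 92.5 and 70.6 CPM, with overlap (-0.14 ± 0.22, adjusted p = 0.762). The other genes of the glutamylase group (Ttll4, Ttll5, Ttll6, Ttll9 and Ttll13) had log2 fold changes from -0.69 to -0.12, and all were lower on average in Mov10-/- testes. Ttll12, a family member without an established side-chain activity, was the sole member higher in every Mov10-/- library, at 71.7, 66.4 and 83.6 CPM in wild type and 97.8, 98.5 and 92.9 CPM in Mov10-/- libraries (0.38 ± 0.11, adjusted p = 0.167).

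**Figure D4:**
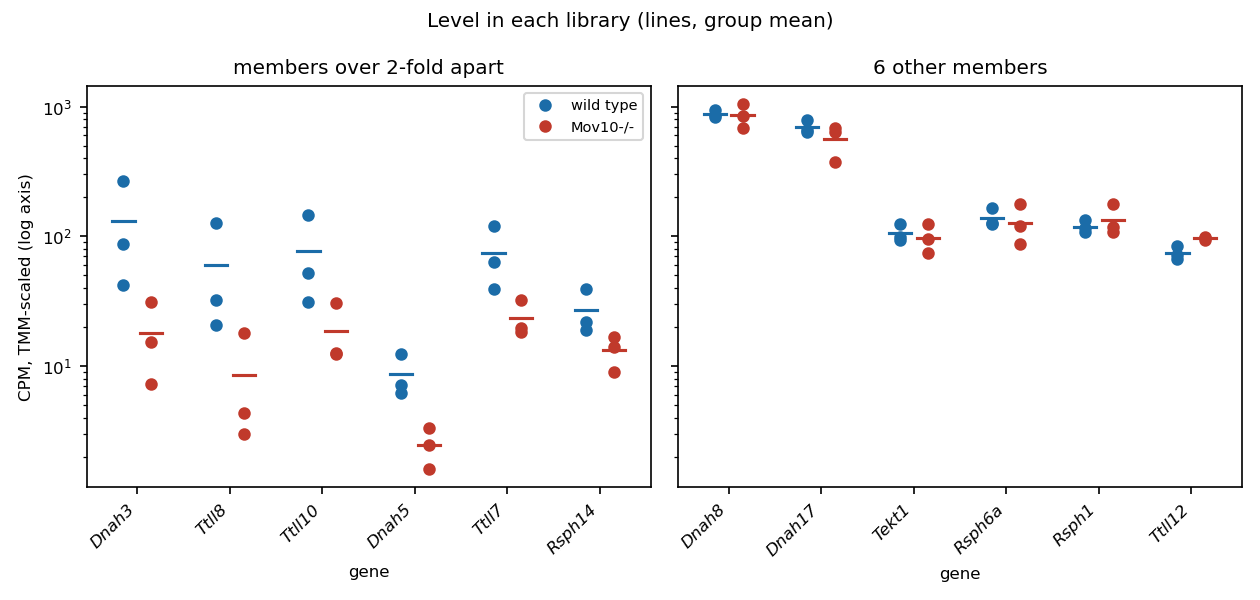
CPM per library on a log axis for the 6 members whose means were over 2-fold apart (left) and for 6 others (right); blue points are 3 wild type libraries, red points 3 Mov10-/- libraries, and lines are group means. On the left all red points lie below the blue ones of the same gene, with Dnah3 spanning 42.0 to 266 CPM in wild type, and on the right the groups overlap except for Ttll12.

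A pair of members fell below the filter. Dnah12, an inner arm heavy chain, had 4, 4 and 18 reads in wild type and 6, 4 and 2 reads in Mov10-/- libraries. Ttll2 had 27 reads in wild type replicate 2, none in the other wild type libraries, and 3, 2 and 0 reads in Mov10-/- libraries. Both counts are too low for a statement about a difference, and 28.2% of the exon bases of Ttll2 are shared with Gm49630 on the same strand.

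Levels between genes were compared per kilobase of exon. In wild type testes the highest were Rsph1 (86.3 ± 9.60 CPM per kilobase), Tekt1 (65.0 ± 10.3), Dnali1 (61.7 ± 9.06), Tekt3 (58.4 ± 11.8) and Rsph6a (55.4 ± 8.86). Rsph1 exceeded Tekt1 by more than either SD, whereas each later neighbor in that order differed from the one before by less than either SD. Lowest of the tested members were Dnah9 (0.894 ± 0.296), Rsph4a (0.556 ± 0.300), Dnah5 (0.552 ± 0.214) and Dnah11 (0.233 ± 0.0607). Dnah12 and Ttll2, which fell below the filter, have no place in this order. The mean of every other tested member lay above 8 CPM per kilobase. Among tested members, the cilia genes Dnah5, Dnah9, Dnah11 and Rsph4a thus formed a separate low group, and within it Rsph4a and Dnah5 did not differ beyond their spread. The sperm counterparts were much higher per length, with Dnah17 at 43.4 ± 5.07, Dnah8 at 32.9 ± 2.16 and Rsph6a as above. Length matters to this order: by coding length Dnal4 (193), Dnali1 (170.1), Dnal1 (164) and Rsph1 (131) led.

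**Figure D5:**
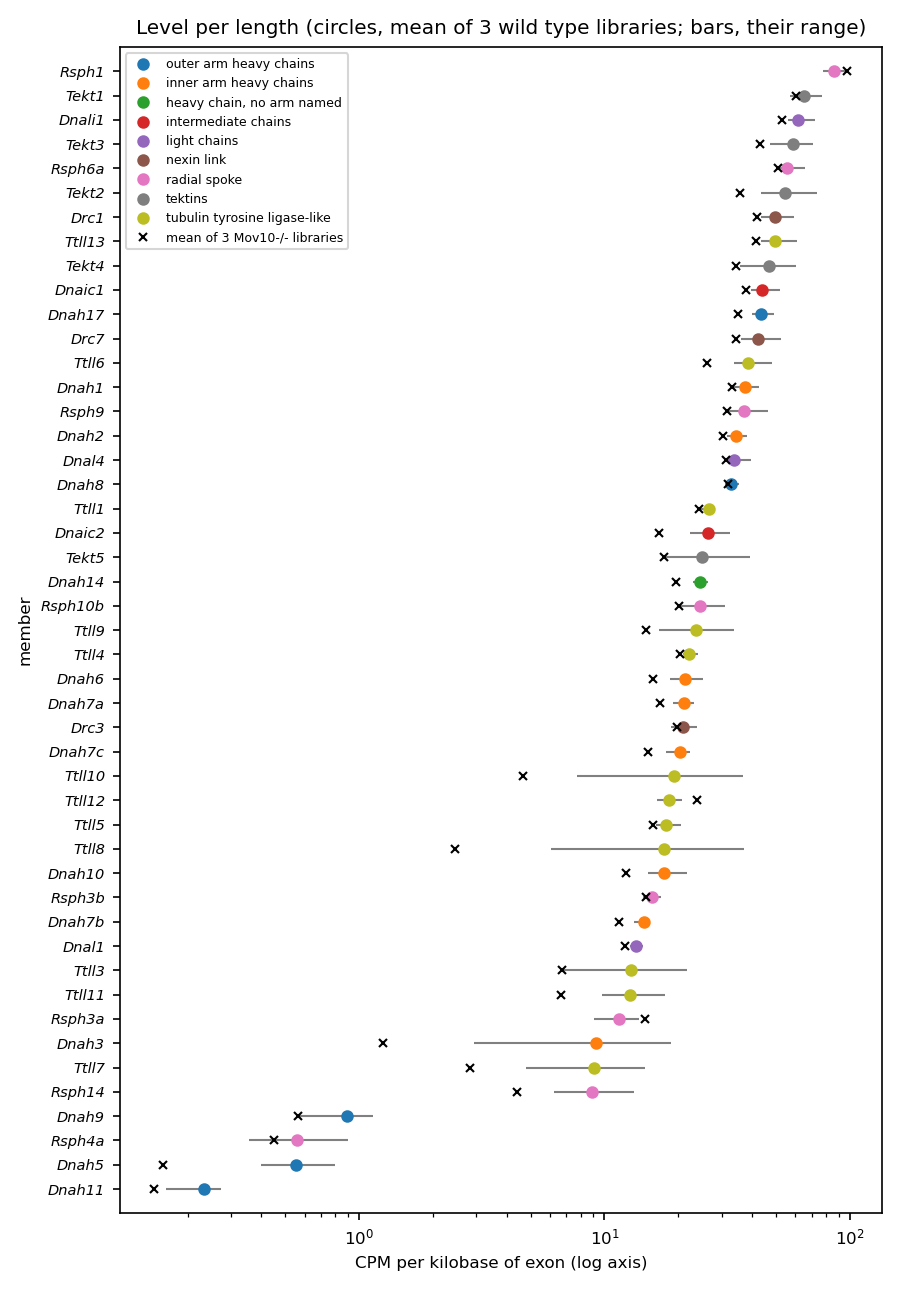
Level of each tested member per kilobase of exon on a log axis: circles are means of 3 wild type libraries colored by role, gray bars their range, and crosses the mean of 3 Mov10-/- libraries. Dnah9, Rsph4a, Dnah5 and Dnah11 have wild type means below 1 CPM per kilobase, and every other tested member has one above 8.

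Other genes of the axoneme, listed outside the 7 prefixes, were counted in the same fit, and none was called. At an unadjusted p under 0.05, 11.9% of all genes tested were lower and 5.58% higher. Of 10 genes for outer arm docking and doublet rulers, 4 were lower at that p, with a median log2 fold change of -0.44. The smallest p belonged to Armc4 (-0.87 ± 0.25), Ccdc63 (-1.58 ± 0.53) and Nme8 (-0.64 ± 0.23), and their adjusted p were 0.166, 0.197 and 0.217. Of 13 partners of the nexin link and spokes, 6 were lower (median -0.28), led by Fbxl13 (-2.0 ± 0.49), Iqca (-2.18 ± 0.57) and Iqub (-0.68 ± 0.19). Of 10 measured proteins inside the doublets, 5 were lower (median -0.35), with Tex43 at -3.45 ± 0.77, Ribc1 at -1.33 ± 0.40 and Efhc2 at -1.31 ± 0.39. Of 7 measured central pair genes, 2 were lower (median -0.34), Spef2 at -0.66 ± 0.18 and Spag16 at -0.44 ± 0.16. No gene of these 4 lists was higher at that p. Wild type replicate 2 was the highest library for each gene named from them, such as Fbxl13 (48.9, 121 and 41.5 CPM in wild type libraries). The groups overlapped for Ccdc63 and Nme8. Fits of these lists without wild type replicate 2 are not given.

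Genes that make or regulate the axoneme were counted in the same way. Only Lrrc6 (-0.38 ± 0.16) of 17 measured dynein assembly factors was lower at an unadjusted p under 0.05, and their median was -0.05. For 11 transcription factors of cilia and spermatids the median was -0.29 with 3 lower, Sox5 at -1.88 ± 0.43, Foxj1 at -1.14 ± 0.41 and Rfx3 at -0.50 ± 0.21. Foxj1, a master regulator of motile cilia, was at 50.1, 107 and 49.3 CPM in wild type and 18, 46.1 and 30.5 CPM in Mov10-/- libraries, so wild type replicate 2 again stood highest. The 14 genes for other tubulin modifications had 3 lower and 3 higher (median -0.11), with Vash2 at -2.08 ± 0.49, Agbl3 at -0.44 ± 0.14 and Hdac6, a tubulin deacetylase, at 0.31 ± 0.10. Wild type replicate 2 was also the highest library for Lrrc6, Sox5, Rfx3, Vash2 and Agbl3, and the groups overlapped for Rfx3. Cytoplasmic and transport dyneins, which carry cargo and do not build the axoneme, had a median of 0.07 over 16 genes, with none lower or higher at that p.

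CLIP-seq reads on the members were few. In the 4 libraries 99.5% to 99.6% of reads were not aligned and 0.0260% to 0.0521% lay on genes, which left 3404 to 4934 reads on genes each. Moreover, the differences among replicates 1, 2 and 3 were smaller than sampling noise allows. These 3 may therefore not be independent, and counts are listed for each library without pooling. Members took 6, 5, 7 and 9 reads in replicates 1, 2, 3 and 5, which is 0.152%, 0.146%, 0.206% and 0.182% of reads on genes. The exact binomial interval of the last share was 0.0834% to 0.346%. In wild type RNA-seq the members took 0.777% ± 0.101 of reads on genes (SD, n = 3). The CLIP-seq and RNA-seq shares are unlike measures. RNA-seq reads rise with transcript length, whereas the paper found CLIP-seq tags enriched in 3′ untranslated regions. Depletion or enrichment of the members was not tested. Dnah8 had 2, 2, 2 and 5 CLIP-seq reads, Dnal1 had 1 in each library, and 42 of the 49 members had none. With 3404 to 4934 reads per library over 55421 genes, most genes in the count files had none either. The exact share is not given, so the count is no trait of the members. No control immunoprecipitation was analysed here, and intervals cover counting error only.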

How the data were processed

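Each library's deposited file holds raw read counts by Ensembl gene ID, made by the authors. Per the labels and the study's methods, RNA-seq libraries were made with a stranded mRNA kit, mapped to mm10 with STAR and counted with HTSeq on Ensembl mouse annotation, and the strand setting of the counting is not stated. Symbols, positions and lengths came from GENCODE M21 (GRCm38), which matched 55240 of 55421 gene IDs.

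The 6 RNA-seq libraries were fitted in edgeR 4.0.16 (R 4.3.3) with TMM scaling and the quasi-likelihood test on all 20240 genes with over 1 CPM in at least 3 libraries, and p-values were adjusted by Benjamini-Hochberg over all of them. A call needed an adjusted p under 0.05 and a fold over 2. The SE was derived from the fold change and its F statistic (absolute log2 value over the root of F). Replicates are pairs of testes, and p-values measure the spread between these libraries. Alternatives were DESeq2 1.42.0, the edgeR exact test, RLE size factors, no filter, a replicate block and leaving out each library. The script was tested on simulated data. Identity of coding sequences is 1 minus edit distance over the longer frame.

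Values per library are given for the 4 members with the smallest p and the 1 with the largest in each symbol family, members called by any test, sperm and cilia heavy chains, Rsph6a, Rsph4a and all tektins. Of each pathway list, up to 3 genes with the smallest p are named. Members and lists were chosen with earlier results of these data known.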

Additional observations from a re-analysis of the deposited data

How the results depend on the processing

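The number of members called lower (0) became 3 in DESeq2, 5 in the edgeR exact test and 1 (Dnah3) with a replicate block. None was called under RLE size factors, without the filter or without any 1 library. Members lower at an unadjusted p under 0.05 numbered 11, where 11.9% of all genes were lower. They numbered 18 in DESeq2 and 19 without the filter, which adds Dnah12 and Ttll2 to the test. The shares of all genes for these 2 settings are not given here. With 1 library left out the count ranged from 7 (without wild type replicate 2) to 19 (without Mov10-/- replicate 3). In those fits 6.47% and 11.75% of all genes were lower at that p. Members higher at that p numbered 1, and 0 with the replicate block. Without 1 library, members with all Mov10-/- libraries below all wild type ones ranged from 14 to 30, and those above from 1 to 2. The 14 came without wild type replicate 2, where 14.5% of all genes were below. The 30 came without Mov10-/- replicate 3, where 21.9% of all genes were below with 2 libraries against 3. The median log2 fold change ranged from -0.46 to -0.16 without 1 library, and was -0.16 without wild type replicate 2. Labels share replicate numbers 2 and 3, but same-numbered libraries deviated in opposite directions (correlations -0.476 and -0.346), so the numbers were not taken to pair the samples. Negative log2 fold changes turned positive for 6 members without wild type replicate 2 and for 9 without Mov10-/- replicate 2, Dnah1, Dnah2 and Rsph3b among the latter. Of those with values given in full, and leaving out 1 library each, Dnah8 ranged from -0.21 to 0.0913, Dnal4 ranged from -0.28 to 0.0425, Drc3 ranged from -0.28 to 0.0703, Rsph4a ranged from -0.54 to 0.266, Rsph6a ranged from -0.42 to 0.0927, Tekt1 ranged from -0.31 to 0.0518 and Ttll1 ranged from -0.38 to 0.0716.
Depth limits Dnah12, Ttll2, Rsph4a, Dnah5 and Dnah11, and the CLIP-seq shares.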
